A study of Mus musculus with 2 samples.

Results

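The semaphorin, ephrin, Slit and netrin guidance genes were examined by RNA sequencing in mouse mammary basal cells grown in 3D culture with or without TNF-α. The genes were chosen by name: semaphorins of classes 3 to 7, plexins, neuropilins, ephrins, Eph receptors, Slits, Robo receptors and netrins. These patterns matched 63 of the 49492 genes in the count table, and 53 of them, whose counts in the control and TNF-α libraries together came to 10 or more, were tested. The control library came from wild-type basal cells (lin-CD24+CD29hi) sorted from the mammary glands of adult female mice and cultured for 10 days without the cytokine. The TNF-α library came from the same kind of cells cultured for 10 days with recombinant mouse TNF-α at 10 ng/mL. According to the study's methods the cells grew as colonies or organoids in a matrix gel in medium with EGF and an insulin supplement. Neither the labels nor the methods say how many mice gave the cells. The descriptions speak of a microarray, but the deposited values are sequencing counts, which summed to 44462275 in the control and 53487087 with TNF-α. With 1 library per condition no difference has a replicate check, so no p-value is given and every comparison is between these 2 libraries.

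Guidance molecules were named for steering growing axons, and most of them also act between epithelial cells. Semaphorins are ligands of plexins. The secreted class 3 semaphorins mostly need a neuropilin as the ligand-binding partner of an A-type plexin, while the membrane-bound classes bind plexins directly. Ephrins are ligands tethered to the cell surface that signal to Eph receptor tyrosine kinases on the next cell and can also signal backwards into their own cell. Slits are secreted ligands of Robo receptors, and netrins are laminin-related proteins that bind DCC, neogenin and the UNC5 receptors. In the mammary gland, Netrin-1 with neogenin and Slit2 with Robo1 are known for holding the outer basal layer of the growing duct to the luminal layer.

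To show the genomic context of the class 3 semaphorins of chromosome 5 and of the neuropilin gene Nrp2, the 250 bases before the RefSeq start of each are printed from GRCm38.p6, 5′ to 3′, with CpG dinucleotides in capitals. They are shown because Sema3d, Sema3a, Sema3e and Sema3c lie in this order along one chromosome and had unlike ratios. The promoter of Sema3b was not in the table used.
Sema3d (chr5:12382916-12383165, + strand, higher with TNF-α): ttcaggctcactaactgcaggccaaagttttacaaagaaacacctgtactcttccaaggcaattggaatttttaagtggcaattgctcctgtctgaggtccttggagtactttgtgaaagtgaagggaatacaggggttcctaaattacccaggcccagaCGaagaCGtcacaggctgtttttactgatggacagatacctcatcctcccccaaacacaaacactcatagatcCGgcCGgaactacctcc
Sema3a (chr5:13396534-13396783, + strand, higher with TNF-α): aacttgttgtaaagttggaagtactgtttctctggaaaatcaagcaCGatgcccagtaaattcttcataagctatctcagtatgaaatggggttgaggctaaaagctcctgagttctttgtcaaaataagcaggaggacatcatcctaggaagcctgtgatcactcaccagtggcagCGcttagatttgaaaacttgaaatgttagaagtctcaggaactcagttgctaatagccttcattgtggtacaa
Nrp2 (chr1:62703067-62703316, + strand, higher with TNF-α): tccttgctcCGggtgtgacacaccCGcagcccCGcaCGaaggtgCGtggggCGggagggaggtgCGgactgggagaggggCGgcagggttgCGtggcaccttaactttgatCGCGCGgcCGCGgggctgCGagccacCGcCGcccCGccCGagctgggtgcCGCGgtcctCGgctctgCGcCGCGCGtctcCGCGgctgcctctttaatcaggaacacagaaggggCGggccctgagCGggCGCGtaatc
Sema3e (chr5:14025026-14025275, + strand, not called): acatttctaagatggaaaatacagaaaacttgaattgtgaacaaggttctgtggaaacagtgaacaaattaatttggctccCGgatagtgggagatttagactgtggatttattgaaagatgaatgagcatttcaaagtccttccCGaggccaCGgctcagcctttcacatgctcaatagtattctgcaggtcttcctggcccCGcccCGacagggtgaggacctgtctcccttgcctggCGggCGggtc
Sema3c (chr5:17574566-17574815, + strand, not called): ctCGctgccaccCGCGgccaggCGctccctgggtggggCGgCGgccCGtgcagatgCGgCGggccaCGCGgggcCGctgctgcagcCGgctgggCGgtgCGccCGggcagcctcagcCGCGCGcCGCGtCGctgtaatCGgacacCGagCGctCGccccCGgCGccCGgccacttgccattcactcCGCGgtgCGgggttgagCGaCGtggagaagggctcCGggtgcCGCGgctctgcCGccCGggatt
The windows of Sema3a and Sema3d held 2 and 4 CpG dinucleotides, that of Sema3e held 7, and those of Nrp2 and Sema3c held 32 and 39. Over 32851 RefSeq promoters of the same length the median was 6, with 44.4% holding 4 or fewer and 4.58% holding 32 or more. On both strands the windows were searched for the NF-κB consensus, the AP-1 motif TGANTCA and the GAS motif TTCNNNGAA. None of the 5 printed windows held these letters, which says nothing about binding of the factors. Among 71 promoters of 55 guidance genes, 5 held the NF-κB consensus, 3 the AP-1 motif and 2 the GAS motif, against 7.25%, 6.75% and 7.02% of all promoters. The start of Sema3a in RefSeq (13396784) lies inside the span of the gene in the count table, as does that of Sema3c (17574816), so their printed windows are not upstream of every counted exon. The window of Nrp2 also runs past the start of its counted span (62703285).

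Guidance genes moved in both directions between the libraries, with the increases in class 3 semaphorins and a neuropilin. Calls of higher or lower needed a ratio of depth-scaled counts (CPM) past 2-fold and reads that passed an exact two-sided binomial test with Benjamini-Hochberg adjustment over all 20771 genes tested, at an adjusted threshold of 0.05. Of the 53 guidance genes tested, 4 were higher with TNF-α (7.55%), against 6.89% of all genes tested. They were Sema3b, Sema3a, Sema3d and Nrp2. There were 5 lower (9.43%), against 5.53% of all genes. They were Sema6c, Plxna2, Plxnc1, Sema4g and Ephb3. The share of higher genes was close to the background, and the share of lower genes rested on 5 calls. The median log2 ratio of the 53 genes was -0.24, with 22 ratios above 0 and 31 below, and that of all genes tested was 0.0038. In bulk RNA, fewer cells of a type and less RNA per cell cannot be told apart, which holds for every ratio given here.

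The sizes of the calls differed by direction. The log2 ratios of the 4 higher genes ran from 1.53 to 3.58, and all 4 counting intervals lay wholly above 2-fold. The log2 ratios of the 5 lower genes ran from -1.17 to -1.02, and 0 of their 5 intervals lay wholly below 2-fold. The intervals are exact 95% Clopper-Pearson limits of the read share turned into ratios. They cover counting error only, and variation between cultures is not included. The sources used here do not say whether copies made by PCR were removed, so the reads may not be independent. Among well-counted genes, with 1000 or more counts in total, 27 of 37 guidance genes (73.0%) were within 1.5-fold, against 87.4% of 9345 genes in all. In that class 8.11% of guidance genes were higher against 2.65% of all genes, and 5.41% were lower against 2.02%, which is 3 and 2 genes.

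**Figure D1:**
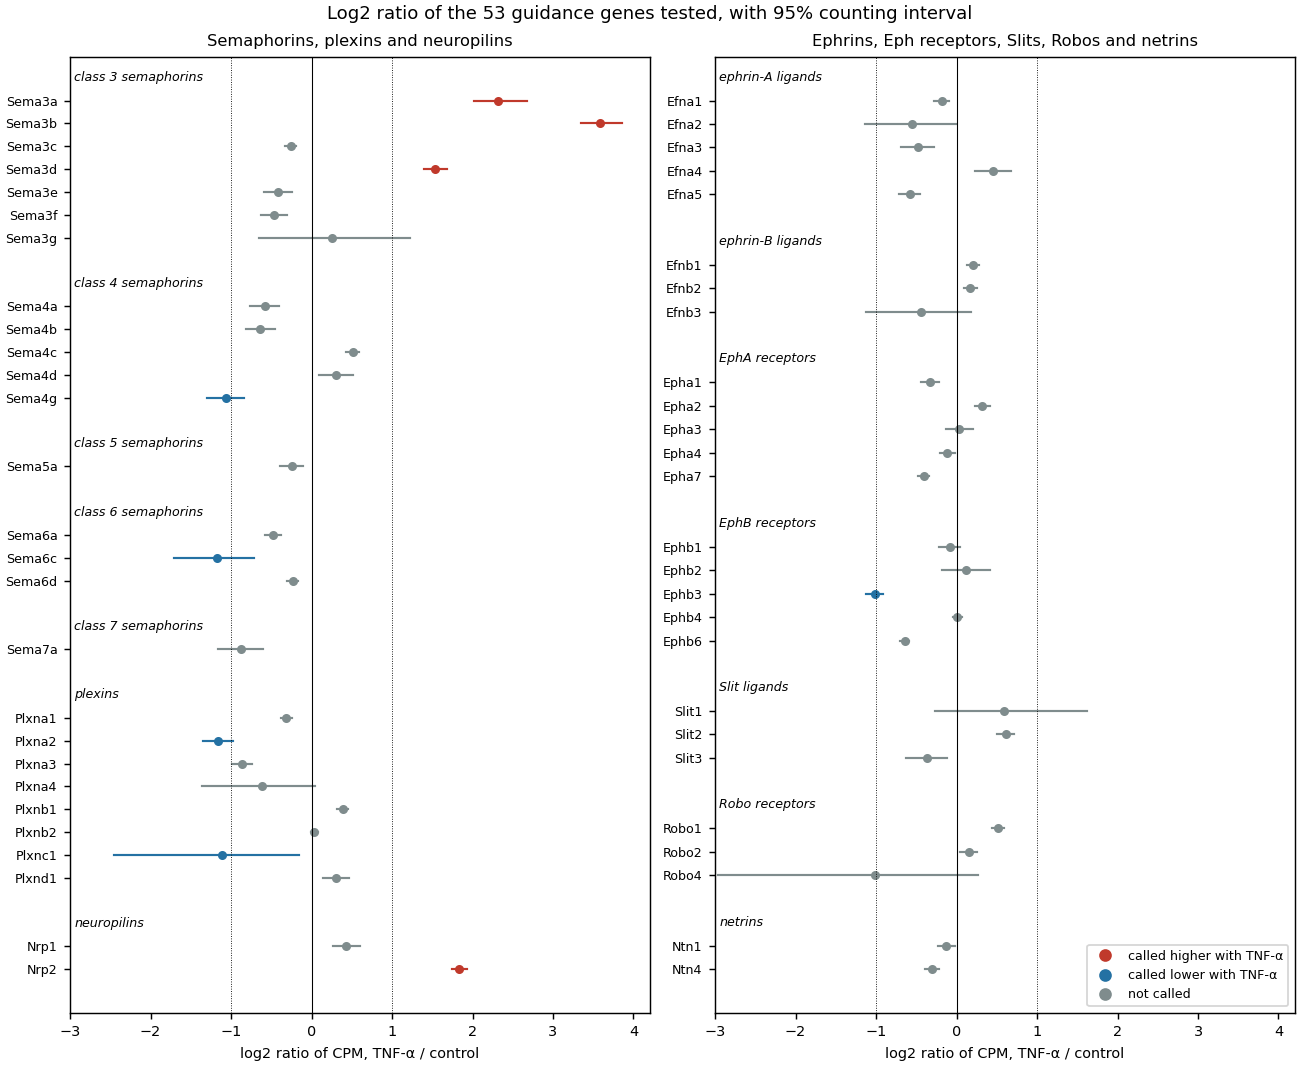
Log2 ratio of CPM (TNF-α over control, horizontal axis) of the 53 guidance genes tested, grouped by family, with points for the ratio, bars for the 95% counting interval and dotted lines at 2-fold. The 4 genes called higher stand apart to the right (1.53 to 3.58), while the 5 called lower lie close to the 2-fold line (-1.17 to -1.02).

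The secreted class 3 semaphorins held 3 of the 4 increases and 0 decreases among 7 genes tested, against 6.89% of all genes higher and 5.53% lower. Sema3b encodes a secreted semaphorin also known as a tumour suppressor gene. It lies on chromosome 9 from 107597674 to 107609229 (minus strand) and had 139 counts in the control and 2016 with TNF-α. The TNF-α library was far higher, with a log2 ratio of 3.58 (3.35 to 3.86). This was the 87th highest log2 ratio of the 20771 genes tested. Per exon length its level was 0.653 RPKM in the control and 7.91 RPKM with TNF-α, so it went from the 29.2 to the 72.2 percentile of all genes tested on that scale.

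Sema3a, the prototype repellent of growing axons, lies on chromosome 5 from 13125414 to 13602565. It had 91 counts in the control and 550 with TNF-α, again with the TNF-α library the higher. Its log2 ratio was 2.31 (2.01 to 2.67), while its level stayed low, at 0.147 RPKM in the control and 0.743 RPKM with TNF-α. Sema3d lies next to it among the guidance genes of chromosome 5, from 12383385 to 12588948, with 536 kb between both genes. It had 534 counts in the control and 1854 with TNF-α, a log2 ratio of 1.53 (1.40 to 1.68), and its level was 1.39 RPKM in the control and 4.04 RPKM with TNF-α.

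The other 4 class 3 genes were not called. Sema3c, a ligand of neuropilins with A- or D-type plexins, was the most abundant of the class per length and had the same count, 3728, in both libraries. After scaling for depth its log2 ratio was -0.26 (-0.33 to -0.19), from 11.7 RPKM in the control to 9.78 RPKM with TNF-α. Sema3f, the ligand best known for binding Nrp2, had 658 counts in the control and 570 with TNF-α, a log2 ratio of -0.47 (-0.63 to -0.30) and the lowest of the class. Sema3e, which can bind the plexin encoded by Plxnd1 without a neuropilin, had 582 and 521 counts and a log2 ratio of -0.42 (-0.59 to -0.25). Sema3g was rarely counted, with 18 counts in the control and 26 with TNF-α, and its interval (-0.65 to 1.22) held 0.

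Some genomic neighbours of the class were alike and others were not. Sema3d and Sema3a were both higher with TNF-α, and Sema3e and Sema3c, which are 3318 kb apart, were both not called. Sema3a and Sema3e are 423 kb apart on chromosome 5, and the former was higher with TNF-α while the latter was not called. Sema3b and Sema3f are 72.3 kb apart on chromosome 9, with log2 ratios of 3.58 and -0.47. Summed over the 7 genes, the level of class 3 semaphorins was 18.2 RPKM in the control and 25.7 RPKM with TNF-α, a 1.41-fold difference. The make-up of that sum differed more than its size. Sema3c held 64.2% of it in the control and 38.1% with TNF-α, while Sema3b held 3.58% and 30.8% and Sema3d 7.64% and 15.7%.

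Of the 2 neuropilin co-receptors, Nrp2 was higher with TNF-α, beside 6.89% of all genes higher and 5.53% lower. Nrp2 encodes a receptor for class 3 semaphorins and for the lymphatic growth factor VEGF-C, and lies on chromosome 1 from 62703285 to 62818695. It had 1153 counts in the control and 4939 with TNF-α, so the TNF-α library was the higher. Its log2 ratio was 1.84 (1.75 to 1.93), from 2.18 RPKM in the control to 7.82 RPKM with TNF-α. Nrp1, its paralog, which is the main neuropilin of Sema3a and a co-receptor of VEGF-A, had 450 and 727 counts and was not called, with a log2 ratio of 0.43 (0.26 to 0.61). Together both genes had 3.22 RPKM in the control and 9.21 RPKM with TNF-α, a 2.86-fold difference, and the share of Nrp2 in the sum was 67.9% and 84.9%.

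**Figure D2:**
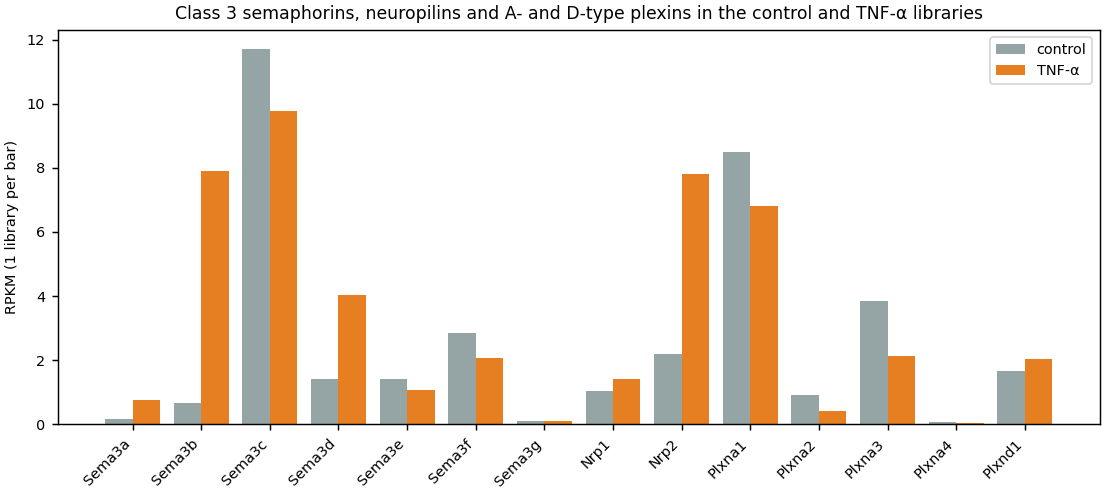
Level per exon length (RPKM, vertical axis from 0) of the class 3 semaphorins, neuropilins and A- and D-type plexins, with 1 bar for the control library and 1 for the TNF-α library and no error bars because each condition has 1 library. Sema3b (0.653 to 7.91 RPKM) and Nrp2 (2.18 to 7.82 RPKM) reach levels near that of Sema3c, which stayed the most abundant of the ligands shown (11.7 and 9.78 RPKM).

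Plexins, the signalling receptors of semaphorins, held 2 of the decreases and 0 increases among 8 genes tested, against 5.53% of all genes lower and 6.89% higher. Plxna2, a receptor of class 3 semaphorins with neuropilins and of class 6 semaphorins alone, lies on chromosome 1 from 194618218 to 194816869. It had 690 counts in the control and 369 with TNF-α, so the TNF-α library was the lower, and its log2 ratio was -1.16 (-1.35 to -0.98). Plxnc1, a receptor of Sema7a, was also called lower but rested on 22 counts in the control and 11 with TNF-α. Its log2 ratio was -1.11 (-2.45 to -0.15), and with counts halved the call was lost.

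Most plexin signal per length came from a gene that hardly differed. Plxnb2, a receptor of class 4 semaphorins, had 8691 and 10649 counts and 27.4 and 28.0 RPKM, a log2 ratio of 0.03 (-0.01 to 0.07). Plxnb1, the receptor best known for Sema4d, had the highest log2 ratio of the family at 0.38 (0.32 to 0.45), from 3280 to 5127 counts, and was not called. Its exons share 257 bases with Gm7628 on the other strand. The remaining A-type genes Plxna1, Plxna3 and Plxna4 had log2 ratios of -0.32, -0.87 and -0.62, so all 4 A-type ratios lay below 0, with only Plxna2 called. Plxna1 shares 970 exonic bases with Gm26811 on the other strand. Plxna4 had only 42 and 32 counts, and its interval (-1.36 to 0.05) held 0. Plxnd1, the endothelial plexin, had 538 and 796 counts and a log2 ratio of 0.30 (0.15 to 0.47). In sum, plexins had 50.1 RPKM in the control and 49.5 RPKM with TNF-α.

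The membrane-bound semaphorins of classes 4 to 7 held 2 of the decreases and 0 increases among 10 genes tested, against 5.53% of all genes lower and 6.89% higher. Both decreases fell short of 2-fold under the correction on GC content and length. In class 4, Sema4g, a transmembrane semaphorin on chromosome 19 from 44989101 to 45003397, had 433 counts in the control and 247 with TNF-α. The TNF-α library was the lower, with a log2 ratio of -1.06 (-1.30 to -0.84). Sema4c, a ligand of the plexin encoded by Plxnb2, was the most abundant of the class per length, at 9.72 and 13.8 RPKM. It had 1990 and 3394 counts and a log2 ratio of 0.51 (0.43 to 0.59), was not called, and shares 334 exonic bases with D430040D24Rik on the other strand. Sema4d, a ligand well known from immune cells, had a log2 ratio of 0.30, and Sema4a and Sema4b had -0.58 and -0.64. None of these 3 was called.

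In class 6, whose members bind A-type plexins, Sema6c was called lower. It lies on chromosome 3 from 95160457 to 95174024 and had 104 counts in the control and 54 with TNF-α. Its log2 ratio of -1.17 was the lowest of all guidance genes tested, with an interval from -1.71 to -0.72, and its level was 0.393 and 0.171 RPKM. Sema6d, the most abundant of class 6 at 6.99 and 5.93 RPKM, had 3288 and 3343 counts and a log2 ratio of -0.24 (-0.31 to -0.17). Sema6a had 1764 and 1509 counts and a log2 ratio of -0.48 (-0.59 to -0.39). Sema5a of class 5, with 761 and 767 counts, had a log2 ratio of -0.25 (-0.40 to -0.10). The lipid-anchored Sema7a came close to the threshold, with 272 counts in the control, 177 with TNF-α and a log2 ratio of -0.87 (-1.16 to -0.60).

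**Figure D3:**
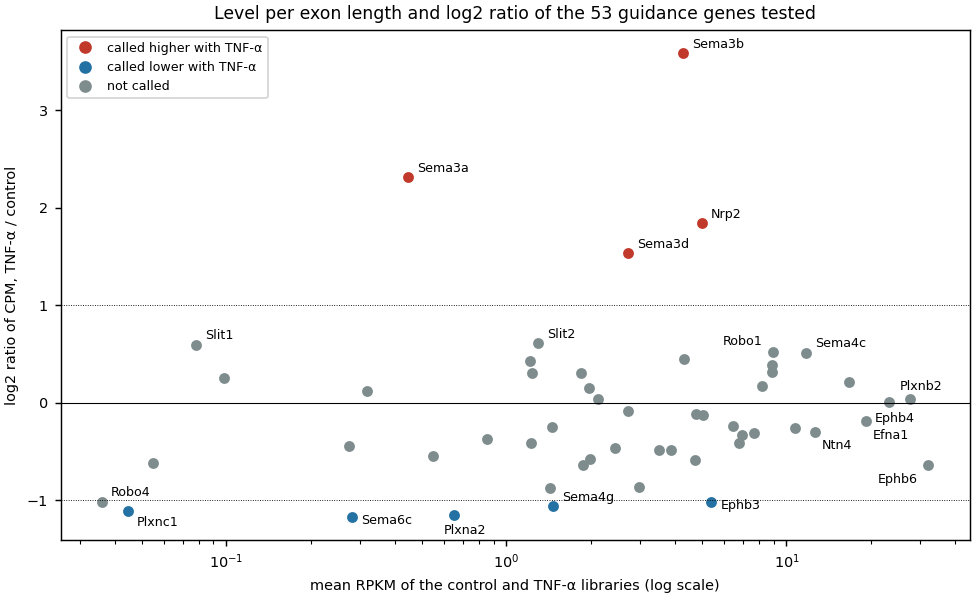
Log2 ratio of CPM (TNF-α over control, vertical axis) against the mean level of both libraries in RPKM (horizontal axis, log scale), with 1 point per guidance gene tested and dotted lines at 2-fold. The most abundant genes, Ephb6, Plxnb2, Ephb4 and Efna1, have log2 ratios between -0.64 and 0.03, and the 4 higher genes lie at low to middle levels.

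None of the 8 ephrins was called, beside 6.89% of all genes higher and 5.53% lower. Efna1, the most abundant ephrin per length at 20.4 RPKM in the control and 18.0 RPKM with TNF-α, is a ligand of the receptor encoded by Epha2. It had 1667 and 1754 counts and a log2 ratio of -0.19 (-0.28 to -0.09). The highest and lowest of the ephrin-A ligands were Efna4, with 260 and 425 counts and a log2 ratio of 0.45 (0.22 to 0.68), and Efna5, with 1021 and 814 counts and a log2 ratio of -0.59 (-0.72 to -0.45). Efna4 shares 168 exonic bases with 4731419I09Rik on the other strand, so its ratio is uncertain. Efna3, with a log2 ratio of -0.49, is uncertain in the same way, as it shares 344 exonic bases with Gm15998 on the other strand. Efna2 had 62 and 50 counts and a log2 ratio of -0.55 (-1.14 to -0.01). Efnb1, the most abundant ephrin-B ligand, had 2394 and 3307 counts and a log2 ratio of 0.21 (0.13 to 0.28). Efnb2 was close to it, with 2347 and 3161 counts and a log2 ratio of 0.17 (0.09 to 0.25). Efnb3 was rarely counted (45 and 39 counts). Summed levels of all ephrins were 58.1 and 56.9 RPKM.

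Of 10 Eph receptors tested, Ephb3 was lower with TNF-α and 9 were not called, against 5.53% of all genes lower and 6.89% higher. Ephb3 encodes a receptor of ephrin-B ligands known for cell sorting in the intestinal crypt, and lies on chromosome 16 from 21204755 to 21223305. It had 2022 counts in the control and 1196 with TNF-α, a log2 ratio of -1.02 (-1.12 to -0.91) and levels of 7.21 and 3.56 RPKM. Its ratio was the one nearest to the 2-fold line among the called genes, and the call was lost with the correction on length (-0.98), with that on GC content and length (-0.86) and at an assumed coefficient of variation of 0.2 or 0.4. Ephb6, a receptor whose kinase domain is inactive, was the most abundant guidance gene per length in the control, at 39.1 RPKM, and had 25.03 RPKM with TNF-α. It had 6578 and 5039 counts and a log2 ratio of -0.64 (-0.70 to -0.59), short of the threshold. Ephb4, a receptor of ephrin-B2, had 4788 and 5757 counts and a log2 ratio of 0.01 (-0.05 to 0.06), so its libraries were not told apart at this depth. Ephb2 had 172 and 223 counts and the highest log2 ratio of the EphB receptors, 0.11 (-0.18 to 0.41), and Ephb1 had -0.09. The summed level of EphB receptors was 72.6 RPKM in the control and 54.8 RPKM with TNF-α, with Ephb6 and Ephb3 carrying the difference.

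None of the 5 EphA receptors tested was called, beside 6.89% of all genes higher and 5.53% lower. Epha2, an epithelial receptor and the most abundant of them, had 1645 and 2455 counts, 7.90 and 9.84 RPKM and a log2 ratio of 0.32 (0.23 to 0.41). Epha7 had 3412 and 3073 counts and the lowest ratio of the group, -0.41 (-0.48 to -0.34). Epha1, Epha4 and Epha3 had log2 ratios of -0.33, -0.11 and 0.04. Exons of Epha1 share 236 bases with Zyx on the other strand.

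No Slit, Robo or netrin gene was called among 3, 3 and 2 tested, beside 6.89% of all genes higher and 5.53% lower. Slit2, the most abundant of the Slits per length, had 1166 counts in the control and 2129 with TNF-α, a log2 ratio of 0.61 (0.51 to 0.71) that passed 1.5-fold but not 2-fold. Slit3 had 260 and 240 counts and a log2 ratio of -0.37 (-0.63 to -0.12), and Slit1 had 16 and 30 counts. Robo1, the main receptor by level at 7.37 and 10.5 RPKM, had 2483 and 4249 counts and a log2 ratio of 0.51 (0.44 to 0.59). Robo2, its neighbour on chromosome 16, had 1376 and 1828 counts and a log2 ratio of 0.15 (0.05 to 0.25). The endothelial receptor gene Robo4 had 12 and 6 counts, so its log2 ratio of -1.02 passed the fold but not the read test. Ntn4, a netrin of basement membranes, was the most abundant netrin at 13.9 and 11.3 RPKM. It had 2324 and 2250 counts and a log2 ratio of -0.31 (-0.39 to -0.22). Ntn1, which encodes Netrin-1, had 1464 and 1606 counts and a log2 ratio of -0.13 (-0.23 to -0.02).

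Across the 44 genes not called, 34 had counting intervals that excluded 0, with 12 above and 22 below it, and 10 had intervals that held 0. The 10 guidance genes not tested were Sema4f, Sema5b, Sema6b, Plxnb3, Epha5, Epha6, Epha8, Epha10, Robo3 and Ntn5, with at most 9 counts each, and Epha6 had 0 counts in both libraries. In sum, ligands had 130 RPKM in the control and 132 RPKM with TNF-α, and receptors 166 and 155 RPKM. Exons of 14 guidance genes overlap those of another gene, and the sources used here do not say whether counting used the strand. None of the 9 called genes is among them.

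The partners and downstream genes of the guidance molecules were counted over fixed lists. Of 27 tested co-receptors and signalling genes of semaphorins and plexins, 2 were higher and 0 lower, with a median log2 ratio of -0.14. Of all genes tested, 6.89% were higher and 5.53% lower, so 2 of 27 higher is near the background. Crmp1, a collapsin response mediator protein that relays semaphorin signals to the cytoskeleton, had 4 counts in the control and 134 with TNF-α, a log2 ratio of 4.29 (3.42 to 6.70). Dpysl4, of the same protein family, had 2 and 16 counts. The integrin gene Itgb1 was the most abundant of the list, at 116 and 139 RPKM, and was not called.

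Among 8 VEGF ligands and receptors that share neuropilins, 1 was higher and 1 lower, against 6.89% and 5.53% of all genes, with a median log2 ratio of 0.31. Vegfa, the angiogenic growth factor that binds both neuropilins, had 4366 counts in the control and 21584 with TNF-α, a log2 ratio of 2.05 (1.999 to 2.093). Vegfd, a ligand of lymphatic vessels, had 149 and 83 counts and a log2 ratio of -1.08 (-1.51 to -0.71). Of 17 tested genes of ephrin and Eph signalling and shedding, 0 were called higher (6.89% of all genes) or lower (5.53% of all genes), and the median was -0.14. By the mean of both libraries the most abundant was Adam10, the protease that cleaves ephrins, at 31.3 and 32.2 RPKM, close to the phosphatase gene Ptpn11 at 30.8 and 32.5 RPKM.

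Of 14 Slit and Robo partners, with a median log2 ratio of 0.02, 1 was higher (6.89% of all genes) and 0 lower (5.53% of all genes). It was Flrt2, a membrane protein that binds UNC5 receptors, with 210 and 688 counts and a log2 ratio of 1.44 (1.23 to 1.68). The proteoglycan gene Sdc1 was the most abundant of them, at 117 and 115 RPKM. Of 11 tested netrin receptors, repulsive guidance molecules and netrin-G genes, with a median log2 ratio of -0.30, 2 were higher and 1 was lower, beside 6.89% and 5.53% of all genes. The membrane-anchored netrin-G1 gene Ntng1 had 654 and 1808 counts and a log2 ratio of 1.205 (1.08 to 1.34). Lrrc4c, which encodes the ligand of netrin-G1, had 24 and 82 counts and a log2 ratio of 1.45 (0.84 to 2.23). Dscam, an adhesion molecule that can bind Netrin-1, had 2344 counts in the control and 963 with TNF-α, a log2 ratio of -1.54 (-1.65 to -1.43), and its level was 7.01 RPKM in the control and 2.41 RPKM with TNF-α. Neo1, which encodes neogenin and was the most abundant of the list by the mean of both libraries, at 6.73 and 7.43 RPKM, had a log2 ratio of 0.14 (0.07 to 0.22), and Dcc had 0 counts in both libraries.

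The labelled cell type, which names the cells put in culture, was checked against its markers. By flow cytometry the study found control colonies of its co-culture experiment to be mostly luminal cells. It also reported a larger basal share in culture with TNF-α. The part of this mix in the ratios was not tested. The basal markers Krt14 and Krt5 had 2933 and 1121 RPKM in the control and 2771 and 1257 RPKM with TNF-α, and Trp63 had 24.9 and 25.5 RPKM, so defining basal genes were present in both libraries. Of 10 basal markers, 0 were higher and 1, Oxtr, was lower (-1.19), with the list at 12543 and 11735 CPM. The luminal keratin gene Krt8 was also abundant (672 and 627 RPKM), and of 11 tested luminal markers Csn3 was higher (1.88) while Esr1, Pgr and Prlr were lower (-1.48, -1.54 and -1.15), beside 6.89% and 5.53% of all genes. Of the 11 luminal ratios 10 lay below 0, with a median log2 ratio of -0.84, and with Csn2 at 0 in both libraries the 12 genes of the list came to 3703 and 2697 CPM.

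Several guidance genes are also known from stromal, vascular and neural cells, so markers of those cells were read beside them. Fibroblast markers summed to 3508 CPM in the control and 4194 CPM with TNF-α, with Postn the most abundant (342 and 419 RPKM). The other 9 genes summed to 528 and 547 CPM, and Col3a1 had a log2 ratio of -0.66 while 8 of the 10 ratios lay above 0. Of these 10 genes 2 were higher, Dpt from 20 to 622 counts and Dcn from 184 to 582, and for this and the marker counts that follow the background is 6.89% of all genes higher and 5.53% lower. Endothelial markers summed to 32.2 and 20.5 CPM, with 1 of 9 lower (Cldn5, 16 and 2 counts), none higher and Erg the most abundant (6.54 and 3.42 RPKM). Without Erg they summed to 9.54 and 8.64 CPM. Over all 9 genes tested, Erg included, 8 ratios lay below 0, the exception being Cdh5 (0.22), with a median of -0.22. Pericyte markers summed to 214 and 158 CPM, with 1 of 7 lower (Abcc9, 106 and 52 counts) and Notch3 the most abundant (20.2 and 14.8 RPKM), and without Notch3 to 51.6 and 39.1 CPM.

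Leukocyte markers were near 0, at 8.93 and 7.08 CPM in sum, with none of 7 called, Lyz2 the most abundant (2.02 and 1.61 RPKM) and Cd3e and Ms4a1 at 0 in both libraries. Schwann cell and neural markers summed to 189 and 158 CPM, with Sox10 the most abundant (59.8 and 45.6 RPKM), Ngfr and Tubb3 higher (35 to 96 and 26 to 100 counts) and S100b lower (42 to 23 counts). Without Sox10 they summed to 26.9 CPM in the control and 34.6 CPM with TNF-α, and over all 10 genes 7 ratios lay above 0, with a median log2 ratio of 0.29. Adipocyte markers summed to 16.8 and 10.5 CPM, and only 4 of the 8 had enough counts to be tested. Of these 4, Lep and Pparg were lower (127 to 10 and 102 to 22 counts). Lipe was the most abundant (1.17 and 1.21 RPKM), and Plin1 was at 0 in both libraries. The part of these cell types in the ratios of Sema3b, Sema3a, Sema3d, Nrp2 and the lower guidance genes was not tested.

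The ratios of the 4 higher genes moved little with scaling, filters, prior count, halved counts, thinning or corrections on length and GC content, as the plot of the 9 called genes under other processing shows. The log2 ratio of each of the 4 higher genes stayed above 1 in all of them. Those of the lower genes moved more relative to their small margin past 2-fold, and some crossed the line. The log2 ratio of Plxnc1 ran from -1.41 with the TNF-α library thinned to -0.91 with halved counts, and that of Sema6c from -1.29 when thinned to -0.95 with the correction on GC content and length. When edgeR's exact test assumed a coefficient of variation of 0.2 between cultures, all 4 higher calls were kept and the 5 lower calls were lost. Of all genes tested, 3.59% were then higher and 2.52% lower, so 0 lower of 53 is near the background. At 0.4 only Sema3b was called, beside 0.438% of all genes higher and 0.260% lower.

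**Figure D4:**
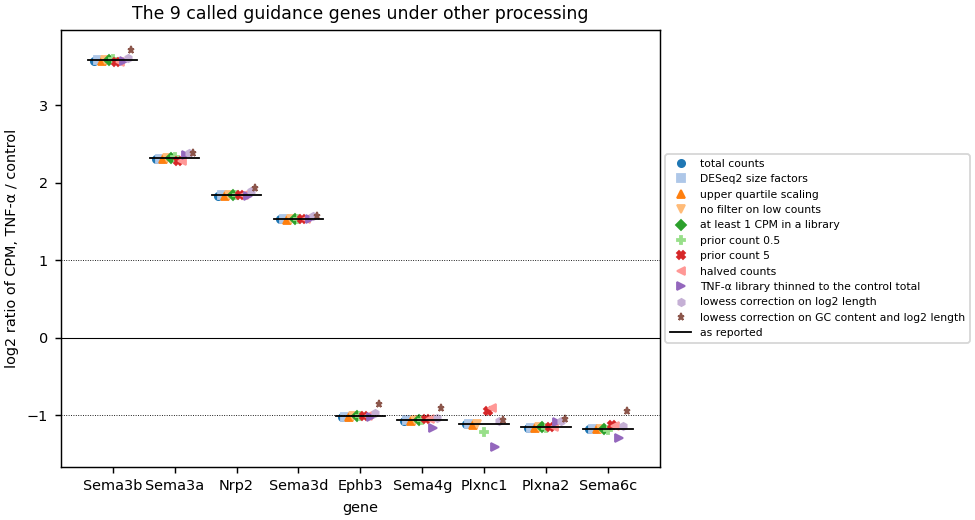
Log2 ratio of CPM (TNF-α over control, vertical axis) of the 9 called guidance genes as reported (black line) and under 11 other processing choices (symbols), with dotted lines at 2-fold. The 4 higher genes stay well above the upper line, while several lower genes cross the lower line.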

How the data were processed

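The authors deposited 1 table of raw read counts per gene, not normalized, with exon coordinates and summed exon length. The submitters' processing notes name GRCm38 (mm10). The aligner, counting tool and read filters are not given in the sources used here. Low counts were mostly even (in the control 2172 genes had 2 counts and 618 had 1), so both read ends may have been counted. If so, intervals are too narrow, and halved counts were tried. A count of 10 is 0.224 CPM in the control and 0.187 CPM with TNF-α.

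Library sizes were scaled with TMM (edgeR 4.0.16, R 4.3.3), giving a TNF-α to control size ratio of 1.20. Log2 ratios used a prior count of 2, while counting intervals used none. Genes with 10 or more counts in total entered the exact binomial read test (scipy 1.17.1). It compares 2 libraries, not the conditions, and without replicates a quasi-likelihood fit in edgeR was not possible. RPKM were computed here from counts, TMM-scaled library sizes and the deposited exon length. The calling procedure was tested on simulated counts with known changes. The simulation held counting error only, and its changes were larger than those of the lower guidance genes, so it does not bear on those calls.

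The guidance genes and all lists were chosen with earlier results of these data known. Named were called genes, the highest and lowest ratio per family among genes with at least 100 counts, and the most abundant per length. Alternatives were total counts, DESeq2 1.42.0 size factors, upper quartile scaling, other filters and prior counts, halved or thinned counts, no read test, a 1.5-fold threshold, assumed coefficients of variation, and a lowess correction (span 0.3) on length. A correction on GC content and length was added after seeing the data. It was computed from GENCODE M21 transcripts because, of the genome sequence, only promoter windows were at hand. Promoters are from RefSeq on GRCm38.p6, matched by symbol for 55 of 63 genes. Python 3.11.15, numpy 2.4.6, pandas 2.3.3, statsmodels 0.14.6 and matplotlib 3.10.9 were used.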

Additional observations from a re-analysis of the deposited data

How the results depend on the processing

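The 4 higher calls were the same genes under every scaling, filter, prior count and correction tried. The higher count was 1 with an assumed coefficient of variation of 0.4 and 5 with a 1.5-fold threshold. The lower count was 0 with an assumed coefficient of variation of 0.2 or 0.4 and 10 with a 1.5-fold threshold. At 1.5-fold, 11.3% of all genes tested were higher and 9.57% lower. With an assumed coefficient of variation of 0.2 these shares were 3.59% and 2.52%, and with 0.4 they were 0.438% and 0.260%. The lower count was 2 with the correction on GC content and length, beside 5.30% of all genes lower. That correction was chosen after seeing the data and lost Ephb3, Sema4g and Sema6c. Plxnc1 was lost without a filter on low counts, with a filter of 1 CPM, with a prior count of 5 and with halved counts, and Ephb3 with the correction on length. The median log2 ratio of the guidance genes ran from -0.24 to -0.16 over these settings. The sign of 50 of the 53 ratios was the same throughout, and those of Ephb1, Ephb4 and Ntn1, all near 0, changed. No paired analysis was possible because there was 1 library for each condition. Depth limits genes under 100 counts, of which 6 were tested.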

Other observations

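The genes around Sema3b were read as a description of the locus. Of 21 genes tested within 100 kb of it, 2 were called higher with TNF-α and 0 lower, against 6.89% and 5.53% of all genes tested, and their median log2 ratio was 0.05. The called neighbours were Slc38a3, an amino acid transporter gene, with 38 counts in the control and 96 with TNF-α, a log2 ratio of 1.04 (0.52 to 1.66), and Gm38150 with 2 and 13 counts. Gnai2, the adjacent G protein gene and the most counted of the 21, had 24391 and 35069 counts and a log2 ratio of 0.26 (0.24 to 0.29). The tumour suppressor gene Rassf1 had 1116 and 1688 counts and a log2 ratio of 0.34 (0.23 to 0.45). The hyaluronidase genes Hyal1, Hyal2 and Hyal3 had log2 ratios of -0.31, 0.08 and -0.40. These genes were chosen for their position, after the ratio of Sema3b was seen.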
